A study of Mus musculus with 12 samples.

Results

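The effect of the peptide IIAEK on the jejunum of mice without Akp3, a gene of intestinal alkaline phosphatase, was examined in 6 arrays, 3 of Akp3-/- (IAP-knockout) mice given IIAEK and 3 of Akp3-/- mice given vehicle. These are 6 of the 12 arrays of the series, chosen by the genotype and dose in the sample titles, and all 27565 genes that could be tested were compared between them. Intestinal alkaline phosphatase (IAP) is an enzyme of the enterocyte brush border that removes phosphate from luminal nucleotides and bacterial endotoxin. Mice carry more than one gene for it, Akp3 for the form found mainly in the duodenum and Alpi for a form expressed along the small intestine. IIAEK, named by the letters of its amino acids, is a short peptide of bovine beta-lactoglobulin known for lowering cholesterol in rodents. The knockout IIAEK group was male Akp3-/- mice that received 600 mg of IIAEK per kg body weight each day by mouth for 14 days, in a 5 g/L solution of carboxymethylcellulose, from 7 weeks of age. The knockout vehicle group was male Akp3-/- mice on the carboxymethylcellulose solution with no peptide. The wild-type IIAEK and wild-type vehicle groups, 3 arrays each, were treated in the same way and serve here to estimate the spread and to set beside the knockout values. One label of the IIAEK samples states the duration in weeks, but their titles and the treatment protocol state days. All mice were fasted for 8 h before the jejunum was taken. Both knockout groups carry Akp3-/- in the whole animal and not in 1 cell type.

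Total RNA was labelled with Cy3 and hybridised to Agilent arrays of 1 colour. A level is the log2 signal of a gene's probe minus the 75th percentile of its array, so that 0 is that percentile and negative levels are common. Levels of different genes are not comparable. A change is the mean level on the IIAEK arrays minus the mean on the vehicle arrays, in log2 units with n = 3 arrays in each group throughout. On the 6 knockout arrays the 75th percentile of the signal ran from 410 to 503 and 59.99% to 67.1% of spots exceeded background clearly (the software's flag). Within a knockout group, arrays correlated with r of 0.978 to 0.992 across genes and arrays of different knockout groups with r of 0.976 to 0.993. Replicates 1 and 2 of both knockout groups lay on 1 slide and replicate 3 of both on the other, so each slide holds both treatments. The labels give 3 samples per group and no animal numbers, so p-values measure the spread between these samples.

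Defining genes of small intestinal enterocytes were detected. Sis, Lct, Fabp2, Apoa4 and Fabp1, genes of sugar digestion and lipid handling, lay between 7.38 and 9.56 on all 6 knockout arrays. The ileal genes Fabp6 and Slc10a2 and the colonic genes Car1, Aqp8 and Slc26a3 were also above background on all 6 arrays, so detection does not separate the jejunum from other segments, and levels of different genes cannot be ranked. Of the gland genes of the duodenum, Tff2 was above background on 2 of the 6 arrays and Muc6 was not analysed here. RNA of neighbouring tissue differed by array. The mean level of 21 exocrine pancreas genes was -0.89, -1.43 and -1.67 on the knockout IIAEK arrays, against -1.70, -1.24 and 3.64 on the knockout vehicle arrays. It was -1.36, 0.87 and 7.52 on the wild-type IIAEK arrays, against 1.19, 0.40 and -0.72 on the wild-type vehicle arrays. Of the knockout arrays, vehicle replicate 3 alone was high. The 6 haemoglobin and red cell genes averaged 1.10, 1.35 and 1.17 on the knockout IIAEK arrays, against 1.78, 0.47 and 4.25 on the knockout vehicle arrays, with the same array highest. Their part in the results below was not tested, and counts without that array are given below.

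Akp3, the targeted gene, was below background on all 6 knockout arrays. Its level was -5.89, -6.83 and -6.71 on the knockout IIAEK arrays, against -6.82, -5.48 and -5.95 on the knockout vehicle arrays, all of them background readings, and -3.89, -1.11 and -1.24 on the wild-type IIAEK arrays, against -3.30, -3.95 and -5.94 on the wild-type vehicle arrays. Wild-type vehicle replicate 3 lay within the range of the knockout arrays and the other wild-type arrays above it. Alpi, the other intestinal alkaline phosphatase gene, was well expressed in the knockout, at 5.37, 5.11 and 4.48 on the knockout IIAEK arrays, against 5.56, 4.92 and 5.33 on the knockout vehicle arrays. The groups overlapped, and the change was -0.28 (95% interval -0.85 to 0.29). Alppl2, an embryonic-type alkaline phosphatase gene, had levels of -3.12, -3.54 and -3.55 on the knockout IIAEK arrays, against -2.63, -3.12 and -2.81 on the knockout vehicle arrays. Its groups did not overlap and the change was -0.55 (95% interval -1.23 to 0.12), while in wild type the change was 1.17. Neither change passed a test over all genes.

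The comparison asks what IIAEK does in the jejunum when Akp3 is missing. In the limma fit of all 12 arrays, with p-values adjusted over all genes by the Benjamini-Hochberg method and a threshold of 0.05, 0 of 27565 genes (0%) differed between IIAEK and vehicle in the knockout, and the smallest adjusted p was 0.893. At an unadjusted p under 0.05, 631 genes (2.29%) were lower on IIAEK and 648 (2.35%) were higher, together 1279. The 3 IIAEK arrays lay wholly below the 3 vehicle arrays for 843 genes (3.06%) and wholly above for 1408 genes (5.11%). The median change over all genes was 0.02. In a fit of the 6 knockout arrays alone, in which the spread of the wild-type arrays has no part, 14 genes (0.0508%) passed an adjusted p of 0.05, and all 14 were lower on IIAEK. Some of the 14 were not above background on the IIAEK arrays and were tested only because they are high in other groups. Among genes above background on all 6 knockout arrays, 7 passed in such a fit, and these 7 are among the 14. Of the 14, 8 belong to a list of follicular B cell genes. Among the others were Srpk3, Chst3, Clu, Tmem108 and the unnamed probe A_55_P2734227. Leaving out 1 array changed the count of 14 to 0 without knockout IIAEK replicate 1, 7 without IIAEK replicate 2, 6 without IIAEK replicate 3, 10 without vehicle replicate 1, 8 without vehicle replicate 2 and 12 without vehicle replicate 3.

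**Figure D1:**
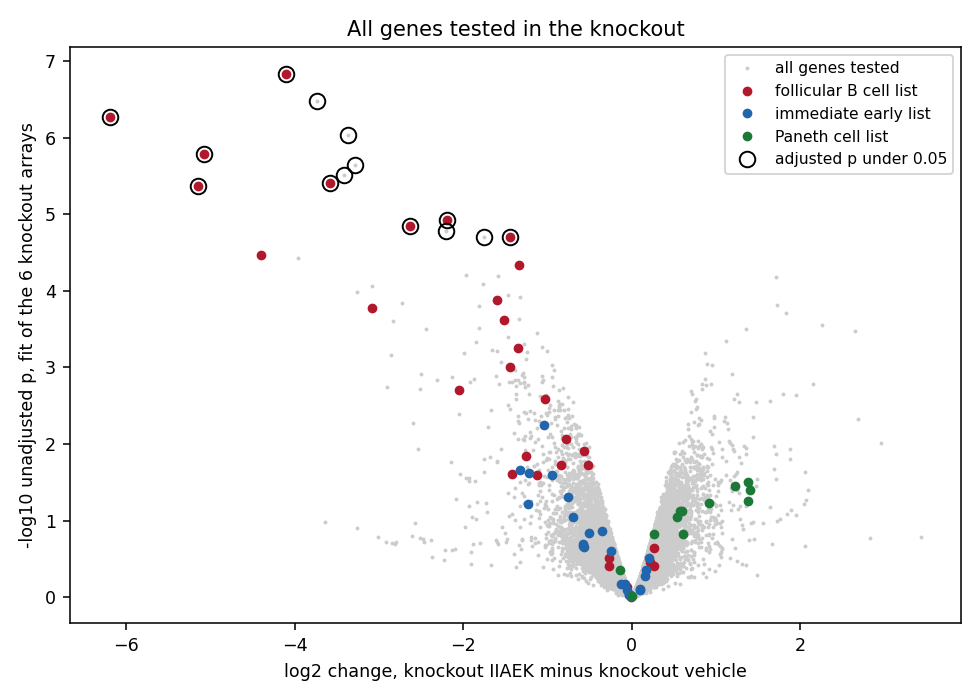
Each point is 1 of the 27565 genes tested in the knockout; the horizontal axis is the log2 change, IIAEK minus vehicle, and the vertical axis is -log10 of the unadjusted p in the fit of the 6 knockout arrays. The 14 circled genes (adjusted p under 0.05) all lie left of 0, and most filled red points of the follicular B cell list lie left of 0 with them.

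B lymphocytes of the small intestine are gathered in follicles, in Peyer's patches and smaller isolated lymphoid follicles, where a germinal centre forms under an epithelium that samples the lumen. Naive follicular B cells carry surface receptors such as Cxcr5, Cr2, Fcer2a and the antigen receptor chains Cd79a and Cd79b. Plasma cells, which lie scattered in the villus and secrete IgA, have lost most of these genes. The follicular B cell list holds 34 genes, of which 31 were tested and 26 were above background on all 6 knockout arrays. The other 5 passed the filter on dim signals through groups in which they are high. The tested members had a median change of -1.35 against 0.02 over all genes, 28 below 0 and 3 above, and -1.19 among those above background on all 6 arrays. At an unadjusted p under 0.05, 23 members were lower, against 2.29% of all genes, and 0 higher. The 3 IIAEK arrays lay below the 3 vehicle arrays for 23 members, against 3.06% of all genes, and above them for 0. These 2 counts include members that passed the filter only where they are high. This list, like the others below, was chosen with earlier results of these data known, so its counts are descriptions and not a test. Among the 26 members above background on all 6 knockout arrays, 18 were lower without overlap, beside 731 of 24777 genes of that kind. Without 1 array the count of 23 at an unadjusted p under 0.05 ran from 16 (without vehicle replicate 2) to 22, and without both replicates 3 it was 16. In bulk tissue, fewer B cells and less RNA of these genes per cell cannot be told apart.

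Receptors of the naive B cell were among the members with the largest changes. Cxcr5, the receptor that draws B cells into follicles, had levels of -5.89, -6.50 and -7.37 on the knockout IIAEK arrays, against -1.87, -1.01 and -1.65 on the knockout vehicle arrays. All 3 IIAEK signals were background readings, all 3 vehicle signals were well above background, and the mean was at least 11.4-fold lower on IIAEK (measured log2 change -5.08; adjusted p = 0.00897 in the knockout-only limma fit). A bound of this kind sets the vehicle mean against the lowest signal of any detected probe on each IIAEK array, or the gene's own reading where higher. It is approximate, since detection was called spot by spot. Fcmr, the receptor for IgM, read -7.003, -5.90 and -7.52 on the knockout IIAEK arrays, against -0.59, -0.23 and -1.03 on the knockout vehicle arrays. It too was not well above background on the IIAEK arrays, and was at least 21.1-fold lower there (log2 change -6.19, knockout-only adjusted p = 0.00492). Fcer2a, the low-affinity IgE receptor CD23, read -7.14, -5.53 and -6.96 on the knockout IIAEK arrays, against -2.12, -1.35 and -2.94 on the knockout vehicle arrays. It was at least 7.37-fold lower (log2 change -4.41) and missed the threshold in the knockout-only fit at an adjusted p of 0.0634. All 3 IIAEK readings of each of these genes were background, and each gene was tested only through groups in which it is high. The gap between the groups is therefore not read, and the adjusted p-values are descriptions.

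Cr2, the complement receptor CD21 that marks mature B cells and follicular dendritic cells, was above background on every knockout array, at -3.34, -2.38 and -3.07 on the knockout IIAEK arrays, against 0.32, 1.13 and 0.50 on the knockout vehicle arrays. Its change was -3.58 (95% interval -5.92 to -1.24), a 12-fold lower mean on IIAEK, and its knockout-only adjusted p was 0.0132. Ms4a1, which encodes CD20, read -4.48, -2.75 and -4.42 on the knockout IIAEK arrays, against 1.15, 1.60 and 1.06 on the knockout vehicle arrays, a change of -5.15 (95% interval -8.64 to -1.66) with a knockout-only adjusted p of 0.0132. Tnfrsf13c, the receptor for the B cell survival factor BAFF, read -1.99, -2.25 and -2.91 on the knockout IIAEK arrays, against 0.08, 0.58 and 0.10 on the knockout vehicle arrays (change -2.63, knockout-only adjusted p = 0.0361). For each of these receptors every IIAEK array was below every vehicle array. Siglecg, an inhibitory lectin of B cells, changed by -2.19 and was above background on 1 of the 3 IIAEK arrays (knockout-only adjusted p = 0.0332). Siglecg too was tested only through groups in which it is high, so its adjusted p is a description. Vpreb3, a chaperone of the antigen receptor, had arrays close together within each group. It read 0.28, 0.09 and 0.09 on the knockout IIAEK arrays, against 1.58, 1.62 and 1.61 on the knockout vehicle arrays, a change of -1.45 (95% interval -2.08 to -0.82) with a knockout-only adjusted p of 0.0391.

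**Figure D2:**
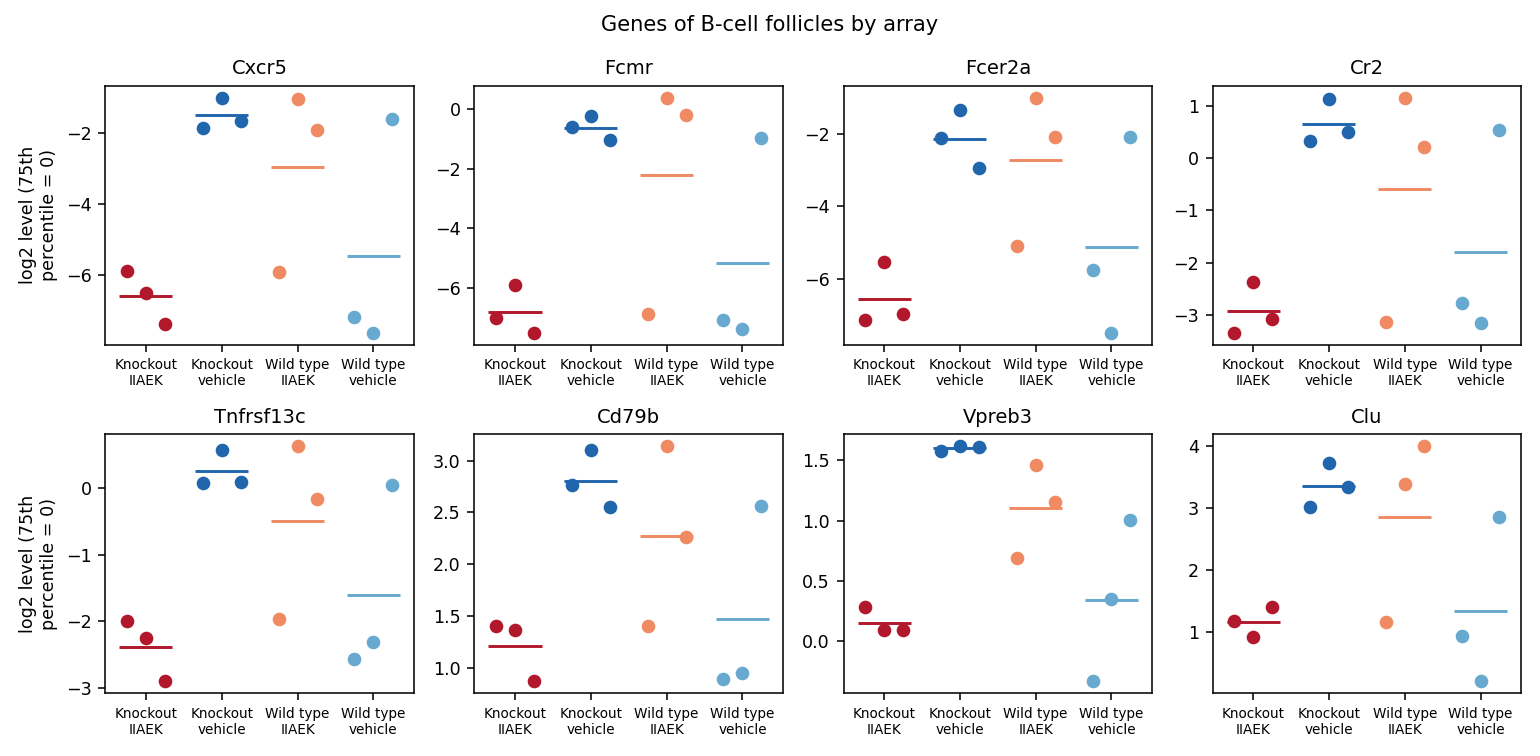
Each panel shows the log2 level of 1 gene on the 12 arrays (points, replicates 1 to 3 from left to right within a group; lines, group means), on its own vertical scale. On the knockout arrays IIAEK (dark red) and vehicle (dark blue) do not overlap, while the wild-type arrays of both treatments hold high and low values.

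Values of further members follow. Cd79b, a chain of the antigen receptor, read 1.40, 1.36 and 0.87 on the knockout IIAEK arrays, against 2.77, 3.11 and 2.55 on the knockout vehicle arrays, a 3.02-fold lower mean on IIAEK. Cd37, a tetraspanin of B cells, was -1.33 and Spib, a transcription factor of B cells that M cells and plasmacytoid dendritic cells also use, was -1.51. The change was -1.35 for Hvcn1, a proton channel of lymphocytes, and -0.57 for Pou2af1, the B cell co-activator of octamer-binding factors. Fcrl1, an Fc receptor-like protein of B cells, was -3.09, and was above background on 2 of the 3 IIAEK arrays. None of these 6 passed in either fit, and the arrays of the groups did not overlap for any of them. Over the 31 members, the mean level was -1.78, -1.62 and -2.13 on the knockout IIAEK arrays, against -0.20, 0.13 and -0.18 on the knockout vehicle arrays. Within slide 1 (2 arrays against 2) the median change of the list was -1.10 and within slide 2 (1 against 1) -1.68.

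The same genes varied between wild-type arrays whatever the treatment. The mean level of the list was -1.67, 0.24 and -0.31 on the wild-type IIAEK arrays, against -1.86, -1.88 and -0.16 on the wild-type vehicle arrays. Wild-type IIAEK replicates 2 and 3 and wild-type vehicle replicate 3 were thus close to the knockout vehicle arrays, and the other 3 wild-type arrays close to the knockout IIAEK arrays. For Cxcr5 the levels were -5.91, -1.05 and -1.91 on the wild-type IIAEK arrays, against -7.18, -7.63 and -1.60 on the wild-type vehicle arrays. The SD of Cxcr5 within groups, pooled over IIAEK and vehicle, was 0.61 in the knockout and 3.001 in wild type. For Fcmr it was 0.65 in the knockout and 3.84 in wild type. This wild-type spread enters the fit of 12 arrays, in which the same genes did not pass, and is absent from the fit of the knockout arrays. The difference between the knockout change and the wild-type change was tested as an interaction. For Cxcr5, whose low arrays are background readings, no size of it is given and its limma adjusted p was 0.303. Over all genes 0 passed (0%), with 4191 (15.2%) at an unadjusted p under 0.05. The labels do not say whether Peyer's patches were removed from the pieces of jejunum. The part of array-to-array differences in lymphoid tissue in the knockout result was not tested.

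Genes of the germinal centre and of follicle stroma lay on the same side. Of the 12 tested germinal centre genes 10 were below 0, with a median of -0.52. The median was -0.24 without IIAEK replicate 3. At an unadjusted p under 0.05, 5 were lower, beside 2.29% of all genes, and 0 higher, among them the cytokine receptor Il21r (-0.87), the confinement receptor S1pr2 (-0.77), Mybl1 (-1.05) and Gcsam (-1.10). Il21r read -1.78, -1.73 and -2.32 on the knockout IIAEK arrays, against -1.06, -0.99 and -1.17 on the knockout vehicle arrays, without overlap. The count of 5 was 1 without knockout IIAEK replicate 3, 2 without vehicle replicate 1 or without vehicle replicate 2, 3 without IIAEK replicate 1, 6 without IIAEK replicate 2, 7 without vehicle replicate 3 and 3 without both replicates 3. Gcsam was -0.69 without IIAEK replicate 3.

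Clu, which encodes clusterin and in the gut marks follicular dendritic cells and M cells among others, read 1.18, 0.91 and 1.40 on the knockout IIAEK arrays, against 3.02, 3.72 and 3.35 on the knockout vehicle arrays. The change was -2.20 (95% interval -3.78 to -0.63), with a knockout-only adjusted p of 0.038. Mfge8, an opsonin of follicular dendritic cells and macrophages, was -1.06 (95% interval -1.80 to -0.32). Ccl19, a chemokine of the T cell zone, was -2.83 (95% interval -5.14 to -0.52), and the lymphotoxin genes Ltb and Lta, whose products maintain lymphoid stroma, were -1.21 and -1.59. In these 5 genes the arrays of the groups did not overlap. Glycam1, a ligand of homing receptors on high endothelial venules, was -1.39, also without overlap. With it 6 of the 13 tested genes of the stroma list were lower without overlap, beside 3.06% of all genes. Of the 6, 4 were above background on all 6 arrays. Cxcl13, the ligand of Cxcr5, did not follow them on every array. It read -1.28, -0.36 and 1.88 on the knockout IIAEK arrays, against 0.41, 1.43 and 1.46 on the knockout vehicle arrays, where IIAEK replicate 3 was the highest of all 6. Of 13 tested genes of the stroma list, 11 were below 0, with a median of -1.02. The median was -0.64 over the 10 members above background on all 6 arrays, and -0.55 without IIAEK replicate 1. Ccl19 and Lta were above background on 2 of the 3 IIAEK arrays.

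Of the other genes that passed in the knockout-only fit, Srpk3, Chst3, Tmem108 and the unnamed probe are not on these lists. Srpk3, a kinase of splicing factors described in muscle, read -5.54, -6.12 and -5.58 on the knockout IIAEK arrays, against -2.50, -2.03 and -2.62 on the knockout vehicle arrays and was at least 6.22-fold lower on IIAEK (log2 change -3.37, adjusted p = 0.00643). Chst3, a chondroitin sulfotransferase, read -5.21, -5.31 and -4.89 on the knockout IIAEK arrays, against -1.88, -1.35 and -2.31 on the knockout vehicle arrays (change -3.29, adjusted p = 0.0105). It was above background on 1 of the 3 IIAEK arrays, so the size of its change is uncertain. Tmem108, a transmembrane protein, was at least 1.59-fold lower (log2 change -1.76, adjusted p = 0.0391), and probe A_55_P2734227 changed by -3.42 (adjusted p = 0.0121). Srpk3 and Tmem108 were not above background on any IIAEK array. Both genes, and Chst3, were tested only through groups in which they are high, so their adjusted p-values are descriptions. The wild-type arrays that were high for the B cell genes were high for Srpk3, Chst3 and the probe. Srpk3 read -5.34, -2.05 and -2.49 on the wild-type IIAEK arrays, against -5.22, -6.04 and -2.92 on the wild-type vehicle arrays, and Chst3 -5.05, -1.12 and -1.74 on the wild-type IIAEK arrays, against -5.42, -5.32 and -1.94 on the wild-type vehicle arrays.

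Plasma cell genes lay near 0. The list of 12 tested genes had a median of -0.03, and its mean level was 1.49, 1.48 and 1.03 on the knockout IIAEK arrays, against 1.59, 1.49 and 1.23 on the knockout vehicle arrays. Jchain, which joins secreted IgA and IgM, read 7.85, 8.40 and 7.45 on the knockout IIAEK arrays, against 8.19, 8.13 and 7.44 on the knockout vehicle arrays, so the groups overlapped. Tnfrsf13b, the receptor TACI that B cells also carry, was the 1 plasma cell list member at an unadjusted p under 0.05, at -0.55 (95% interval -0.97 to -0.12). Among 18 T cell genes the median was -0.37, with 3 lower at an unadjusted p under 0.05, beside 2.29% of all genes. The median was -0.11 without IIAEK replicate 3 and -0.69 without IIAEK replicate 2. The 3 genes were Ccr7 (-2.60), Tcf7 (-0.75) and Lef1 (-0.99), genes of naive lymphocytes, and Ccr7 was -1.70 without IIAEK replicate 3. Genes of intraepithelial and cytotoxic lymphocytes had a median of 0.12 (-0.18 without IIAEK replicate 2), and 0 of 16 reached an unadjusted p under 0.05. For macrophage and dendritic cell genes the median was 0.00.

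MHC class II genes present peptides to helper T cells and are expressed by B cells, dendritic cells and, in the small intestine, enterocytes. All 9 tested genes of the list were below 0 on IIAEK, with a median of -0.59, but only 3 reached an unadjusted p under 0.05, beside 2.29% of all genes lower. H2-Ob read -2.09, -1.55 and -3.32 on the knockout IIAEK arrays, against -0.40, 0.23 and -0.64 on the knockout vehicle arrays and H2-Oa read -0.63, -0.49 and -2.49 on the knockout IIAEK arrays, against 0.19, 0.58 and -0.13 on the knockout vehicle arrays; both encode the DO chaperone of B cells and both also stand on the B cell list. Ciita, the transactivator of the class II genes, was -0.84 (95% interval -1.60 to -0.08). The major chains and the invariant chain differed less, with H2-Ab1 at -0.49, H2-Eb1 at -0.59 and Cd74 at -0.76. Here 1 array stood out. Cd74 read 4.74, 4.51 and 2.94 on the knockout IIAEK arrays, against 4.86, 5.07 and 4.53 on the knockout vehicle arrays, and IIAEK replicate 3 was the lowest. Without it the median of the list was -0.14, with 0 members at an unadjusted p under 0.05, H2-Ab1 turned to 0.07, and H2-Oa was -0.77, Ciita -0.48, H2-Eb1 -0.12 and Cd74 -0.20. Without IIAEK replicate 2 the median was -0.98.

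Promoter sequences of genes that were lower together are shown for the sites that B cell and immediate early genes are known to use. The sequences are those of RefSeq on GRCm38.p6, from 250 bases before to 50 after the start of transcription, 5′ to 3′ on the strand of the gene. They were searched on both strands for the octamer ATTTGCAT, bound by Pou2f1 and Pou2f2 with Pou2af1, the cyclic AMP response element TGACGTCA, and the serum response element (CArG box). Capitals mark matches. Of the 31 tested B cell genes 25 had a sequence, and 2 of these held an octamer, Vpreb3 and Blnk. Among all 32851 promoters, in which a gene can have several starts, the share with an octamer was 1.74%. A CArG box was found in 2 members, Fcer2a and Gpr183, against 1.63% of all promoters, and TGACGTCA in 0, against 1.79%. Tnfrsf13c and Fcmr, whose changes are among those given above, are shown as members with no match to any of the 3 motifs in this window.
Vpreb3 (chr10:75948050-75948349, plus strand, octamer at -45 to -38 from the start): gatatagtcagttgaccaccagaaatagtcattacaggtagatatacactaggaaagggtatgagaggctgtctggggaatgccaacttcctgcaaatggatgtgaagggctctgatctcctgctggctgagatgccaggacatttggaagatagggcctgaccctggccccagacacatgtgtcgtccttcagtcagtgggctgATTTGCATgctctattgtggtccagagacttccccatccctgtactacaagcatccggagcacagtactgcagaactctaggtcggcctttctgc
Blnk (chr19:40994172-40994471, minus strand, octamer at -130 to -123): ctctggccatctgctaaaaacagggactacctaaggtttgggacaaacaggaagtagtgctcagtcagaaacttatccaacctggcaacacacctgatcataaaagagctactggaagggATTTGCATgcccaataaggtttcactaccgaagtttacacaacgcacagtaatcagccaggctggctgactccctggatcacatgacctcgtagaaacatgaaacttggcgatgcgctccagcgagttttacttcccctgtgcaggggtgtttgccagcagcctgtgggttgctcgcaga
Tnfrsf13c (chr15:82224331-82224630, minus strand): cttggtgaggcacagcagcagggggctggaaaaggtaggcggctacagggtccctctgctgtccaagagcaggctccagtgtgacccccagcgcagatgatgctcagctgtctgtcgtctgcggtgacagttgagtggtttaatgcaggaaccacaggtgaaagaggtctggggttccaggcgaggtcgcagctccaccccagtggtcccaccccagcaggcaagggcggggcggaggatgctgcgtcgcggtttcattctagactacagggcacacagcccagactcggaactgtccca
Fcmr (chr1:130865527-130865826, plus strand): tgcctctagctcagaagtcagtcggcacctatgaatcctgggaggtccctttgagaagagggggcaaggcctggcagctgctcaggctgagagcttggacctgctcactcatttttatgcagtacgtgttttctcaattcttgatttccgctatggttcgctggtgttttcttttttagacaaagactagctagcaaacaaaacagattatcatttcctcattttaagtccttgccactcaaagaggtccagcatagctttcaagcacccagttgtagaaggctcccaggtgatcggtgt

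Blnk, the adaptor downstream of the antigen receptor, had a change of -0.27 (95% interval -0.87 to 0.34) and overlapping groups, against -1.45 (95% interval -2.08 to -0.82) for Vpreb3. The pair with an octamer thus held 1 member that passed in the knockout-only fit and 1 that did not. A match describes the letters of the window and not a bound site.

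Paneth cells sit at the base of the crypts and release lysozyme, alpha-defensins and other antimicrobial proteins. Most of their genes were above 0, with IIAEK replicate 3 apart from the other arrays. Of 12 tested members 11 were above 0, with a median of 0.60, and 7 were higher and 0 lower at an unadjusted p under 0.05, beside 2.35% of all genes higher. Mptx2, a pentraxin of Paneth cells, read 6.47, 7.14 and 8.07 on the knockout IIAEK arrays, against 6.68, 5.98 and 4.87 on the knockout vehicle arrays. The matrix protease Mmp7, which activates alpha-defensins in mice, read 4.57, 4.67 and 5.84 on the knockout IIAEK arrays, against 4.77, 4.01 and 3.54 on the knockout vehicle arrays, and the ribonuclease Ang4 5.84, 6.35 and 7.32 on the knockout IIAEK arrays, against 5.89, 5.57 and 4.36 on the knockout vehicle arrays. In all 3 genes IIAEK replicate 3 was the highest array and vehicle replicate 3 the lowest, and vehicle replicate 1 exceeded IIAEK replicate 1. Their changes were 1.38, 0.92 and 1.23. The change was 1.41 for Mptx1 and 1.38 for the alpha-defensin gene Defa21; the defensin genes are near-identical copies, so their probes may read one another.

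Itln1, intelectin, and Lyz1, the lysozyme of Paneth cells, were the 2 members whose groups did not overlap. Of all genes 5.11% were higher without overlap. Itln1 read 8.79, 8.97 and 9.20 on the knockout IIAEK arrays, against 8.78, 8.65 and 7.82 on the knockout vehicle arrays (change 0.57), and Lyz1 read 8.50, 8.34 and 8.68 on the knockout IIAEK arrays, against 8.25, 8.26 and 8.20 on the knockout vehicle arrays (change 0.27). The mean level of the list was 6.32, 6.46 and 7.28 on the knockout IIAEK arrays, against 6.30, 5.98 and 5.59 on the knockout vehicle arrays. The count of 7 higher members at an unadjusted p under 0.05 was 0 without knockout IIAEK replicate 3, 1 without vehicle replicate 3 and 1 without both. Without vehicle replicate 3 the changes were 0.90 for Mptx2, 0.77 for Ang4, 0.89 for Mptx1 and 0.27 for Itln1, and without IIAEK replicate 3 they were 0.52 for Mmp7 and 0.70 for Defa21. The median of the list was 0.17 within slide 1 and 1.58 within slide 2. Vehicle replicate 3 is the knockout array with high levels of pancreas genes. Reg3g, a lectin that kills Gram-positive bacteria, went by array in a similar way, at 5.90, 7.58 and 8.11 on the knockout IIAEK arrays, against 6.60, 6.09 and 3.96 on the knockout vehicle arrays. The ribonuclease Ang was 1.06 (95% interval 0.16 to 1.96), and the median of the Reg3 and enterocyte antimicrobial list was 0.55. Without IIAEK replicate 3 Ang was 0.67.

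**Figure D3:**
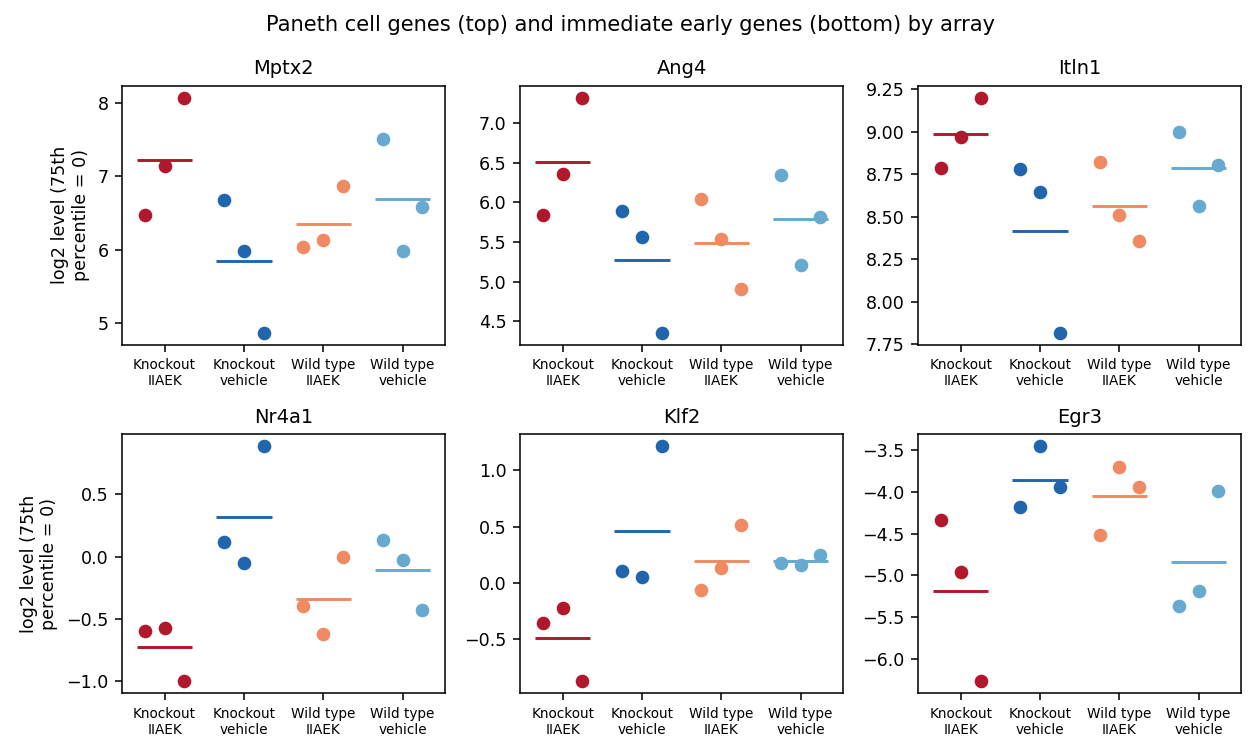
Each panel shows the log2 level of 1 gene on the 12 arrays (points, replicates 1 to 3 from left to right within a group; lines, group means), on its own vertical scale. The third IIAEK array of the knockout is the highest and the third vehicle array the lowest for Mptx2, Ang4 and Itln1, whereas Nr4a1 and Klf2 are lowest on that IIAEK array and highest on that vehicle array.

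Goblet cells make the mucus layer. Of 12 tested genes 10 were above 0, with a median of 0.14, and 3 were higher at an unadjusted p under 0.05, beside 2.35% of all genes. The median was 0.03 without vehicle replicate 2. Spink4, a protease inhibitor of goblet cells, read 7.36, 7.85 and 8.05 on the knockout IIAEK arrays, against 7.18, 7.001 and 6.60 on the knockout vehicle arrays, and Agr2, a disulfide isomerase needed to fold mucin, read 6.14, 6.46 and 6.06 on the knockout IIAEK arrays, against 6.004, 5.79 and 5.52 on the knockout vehicle arrays. Both were higher on every IIAEK array than on any vehicle array, with changes of 0.82 (95% interval 0.31 to 1.33) and 0.45 (95% interval 0.09 to 0.81). They were the 2 members higher without overlap, beside 5.11% of all genes. The chemokine gene Ccl6 was 0.77 with overlap. The M cell and follicle epithelium list had a median of -0.20. Ccl9, a chemokine of follicle epithelium, was 0.67 and Ccl20, the chemokine that calls B cells to the follicle epithelium, was -0.82, without overlap for Ccl20. Ccl9 was 0.40 without IIAEK replicate 3, where the list median was -0.04.

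Immediate early genes are switched on within minutes of a stimulus and include transcription factors and phosphatases. Of 26 tested genes 21 were below 0 on IIAEK, with a median of -0.18, and 6 were lower and 0 higher at an unadjusted p under 0.05, beside 2.29% of all genes lower. Nr4a1, an orphan nuclear receptor, read -0.60, -0.57 and -1.0 on the knockout IIAEK arrays, against 0.12, -0.05 and 0.88 on the knockout vehicle arrays, a change of -1.04 (95% interval -1.61 to -0.47). Klf2, a factor of endothelium and naive lymphocytes, read -0.36, -0.23 and -0.88 on the knockout IIAEK arrays, against 0.10, 0.06 and 1.21 on the knockout vehicle arrays (change -0.94), and Dusp2, a phosphatase of MAP kinases, -0.52, 0.34 and -1.45 on the knockout IIAEK arrays, against 0.37, 0.52 and 1.15 on the knockout vehicle arrays (change -1.22). Egr3 was -1.33, Arc -0.76 and Fosb -1.23. Egr3 and Arc were above background on 1 of the 3 IIAEK arrays. Groups did not overlap for these genes except Fosb, beside 3.06% of all genes lower without overlap. Without IIAEK replicate 3 Egr3 was -0.79 and Dusp2 -0.77, and without vehicle replicate 3 Arc was -0.38, Fosb -0.65 and Klf2 -0.57. The count of 6 was 3 without knockout IIAEK replicate 3, 4 without vehicle replicate 3 and 2 without both, and the median within slide 1 was 0.00. On slide 2 the median was -0.77, without vehicle replicate 2 it was -0.33, and over the 24 members above background on all 6 arrays it was -0.10.

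The promoter at 1 of the starts of Egr2 is printed because it holds a CArG box and an octamer. Of the 21 tested immediate early genes with a sequence, 2 held a CArG box, Egr2 and Zfp36, against 1.63% of all promoters, and 3 held TGACGTCA, namely Btg2, Dusp1 and Maff, against 1.79%. Egr2, a zinc finger factor, read -2.67, -2.68 and -3.91 on the knockout IIAEK arrays, against -2.47, -2.05 and -2.66 on the knockout vehicle arrays, a change of -0.69 (95% interval -1.40 to 0.01) without overlap, and -0.28 without IIAEK replicate 3.
Egr2 (chr10:67537619-67537918, plus strand, octamer on the other strand at -127 to -120, CArG box at -72 to -63): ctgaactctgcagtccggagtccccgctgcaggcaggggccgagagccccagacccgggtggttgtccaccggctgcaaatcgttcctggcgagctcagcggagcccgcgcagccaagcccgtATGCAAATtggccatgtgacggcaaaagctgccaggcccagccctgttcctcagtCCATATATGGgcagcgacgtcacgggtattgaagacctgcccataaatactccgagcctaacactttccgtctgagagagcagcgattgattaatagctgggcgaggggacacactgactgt

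Genes of the absorptive enterocyte had medians near 0. Of 19 brush border genes, enzymes and structural proteins, 13 were above 0, with a median of 0.12. At an unadjusted p under 0.05, 1 was higher, Mep1b, a subunit of the protease meprin, at 0.72 (95% interval 0.11 to 1.34). Dpp4, a peptidase that cleaves dipeptides from peptides, was 0.63 (95% interval -0.03 to 1.29), and 0.34 by another probe. Among 15 carriers of sugars, peptides and amino acids the median was 0.02. The subunits of the cystine and dibasic amino acid carrier, Slc3a1 and Slc7a9, were both higher at an unadjusted p under 0.05. Slc3a1 read 3.88, 4.01 and 4.14 on the knockout IIAEK arrays, against 3.84, 3.24 and 2.95 on the knockout vehicle arrays, and Slc7a9 read 4.83, 4.75 and 4.82 on the knockout IIAEK arrays, against 4.71, 4.23 and 4.25 on the knockout vehicle arrays, with changes of 0.67 (95% interval 0.17 to 1.16) and 0.40 (95% interval 0.05 to 0.76) and no overlap in either. Slc15a1, the carrier of di- and tripeptides, read 1.02, 1.26 and 2.69 on the knockout IIAEK arrays, against 1.12, 0.29 and 2.28 on the knockout vehicle arrays and its groups overlapped, with a change of 0.43 that turned to -0.08 without IIAEK replicate 3 and -0.04 without vehicle replicate 2. Slc2a2, the basolateral glucose carrier, was -0.32 (95% interval -0.75 to 0.11), and -0.16 without IIAEK replicate 3.

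Sterol genes were examined since IIAEK is described as lowering cholesterol. Of 14 genes of sterol absorption and efflux 8 were above 0, with a median of 0.06 and 0 at an unadjusted p under 0.05. Npc1l1, the cholesterol importer of the brush border, read 5.58, 5.04 and 4.49 on the knockout IIAEK arrays, against 5.06, 4.90 and 4.47 on the knockout vehicle arrays. Its change was 0.22 (95% interval -0.38 to 0.83), and it was -0.05 without IIAEK replicate 1. Mttp, which loads lipid on chylomicrons, was 0.34 (95% interval -0.15 to 0.83). Of 24 genes of cholesterol synthesis and its regulator SREBP2 18 were above 0, with a median of 0.19, and again 0 reached an unadjusted p under 0.05. This median was 0.06 without IIAEK replicate 1. Hmgcs1, an early enzyme of the mevalonate pathway, was 0.31 (95% interval -0.08 to 0.70), Idi1 0.32 (95% interval -0.16 to 0.80) and Mvk 0.26 (95% interval -0.14 to 0.67). Mvk was the only gene of this list without overlap, beside 5.11% of all genes higher without overlap. It read 1.44, 1.38 and 1.81 on the knockout IIAEK arrays, against 1.33, 1.17 and 1.34 on the knockout vehicle arrays. The medians were 0.00 for fatty acid synthesis, -0.05 for PPARA targets, 0.02 for bile acid genes and 0.19 for xenobiotic metabolism, against 0.02 over all genes.

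**Figure D4:**
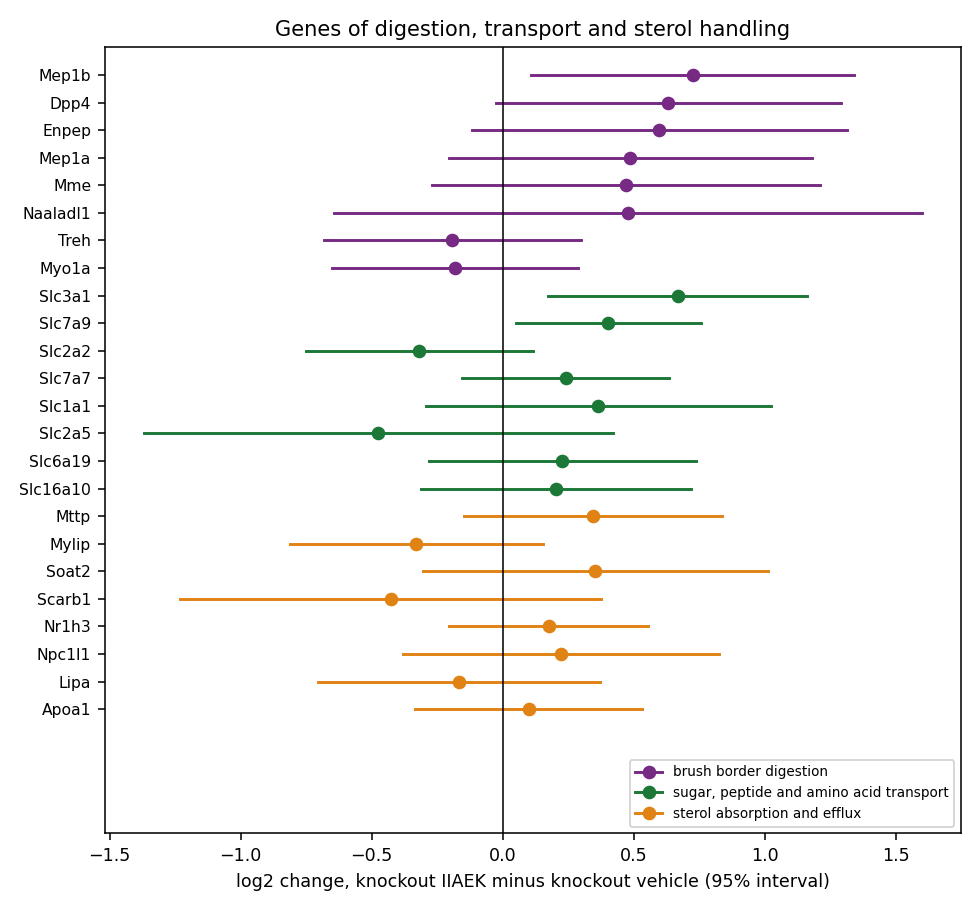
Points are log2 changes, IIAEK minus vehicle in the knockout, of the 8 genes with the smallest p in each of 3 lists, and bars are 95% intervals of the fit of 12 arrays. Mep1b, Slc3a1 and Slc7a9 are the genes whose bars lie above 0.

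**Figure D5:**
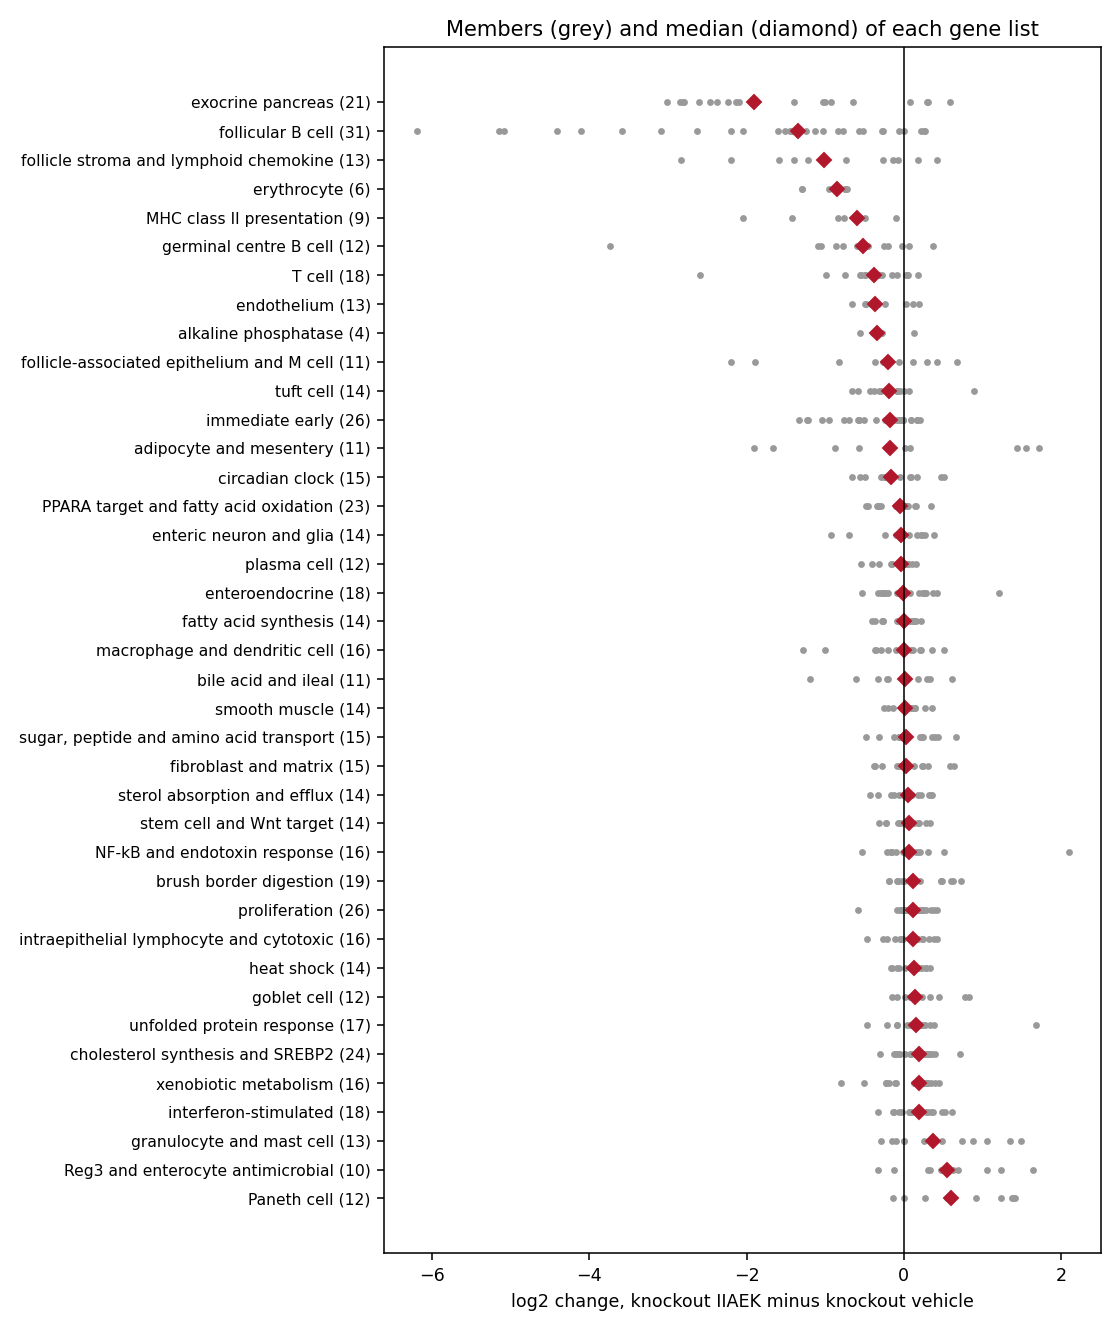
Each row is 1 of the 39 gene lists, with the number of tested members in brackets; grey points are members, diamonds medians, and the horizontal axis is the log2 change, IIAEK minus vehicle in the knockout. The exocrine pancreas list has the lowest median, -1.91, followed by follicular B cells at -1.35, and the Paneth cell list has the highest, 0.60.

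The remaining lists are given by their medians and by members at an unadjusted p under 0.05. The exocrine pancreas median of -1.91 came with 0 of 21 members at an unadjusted p under 0.05 in the lower direction, and it was 0.14 without vehicle replicate 3. Without the same array the red cell median turned to 0.16, the clock median to 0.36 and the interferon median to -0.38, whereas the interferon median was 0.52 without IIAEK replicate 3. Without IIAEK replicate 2 the adipocyte and mesentery median turned to 0.57, the neuron and glia median to 0.10 and the endothelium median was -0.17. Other medians below 0 were -0.85 for red cell genes, -0.37 for endothelium, -0.19 for tuft cells, -0.17 for adipocytes and mesentery, -0.16 for the clock and -0.03 for neurons and glia. The granulocyte and mast cell median was 0.37, but 0.01 without vehicle replicate 3 and 0.01 over the 9 members above background on all 6 arrays. Several of the medians near 0 changed sign when 1 array was left out, and their signs are not read. Medians were 0.20 for interferon-stimulated genes, 0.06 for NF-kB and endotoxin response, 0.06 for stem cells, 0.12 for proliferation, 0.13 for heat shock, 0.02 for smooth muscle and 0.02 for fibroblasts. At an unadjusted p under 0.05, the NF-kB list had Saa3, an acute phase protein, higher (2.09), the macrophage and dendritic cell list Gpnmb (-1.28, above background on 1 of 3 IIAEK arrays) and Flt3 (-0.997, and -0.31 without IIAEK replicate 3) lower and the PPARA list Ucp2 lower (-0.48, and -0.24 without IIAEK replicate 3). Saa3 was 1.21 without vehicle replicate 3. It was not above background on all 6 arrays, so the size of its change is uncertain. The endothelial list had Plvap lower (-0.65), the neuronal list Gdnf (-0.69) and Uchl1 (-0.92) lower, the proliferation list Ccnb1 higher (0.42) and the clock list Clock higher (0.52). Other probes changed less, by 0.18 and 0.14 for Ccnb1 and by 0.25 and 0.36 for Clock. Single members stood out in 2 further lists. Chac1, a glutathione-degrading enzyme of the amino acid stress response, read -1.55, -1.53 and -0.14 on the knockout IIAEK arrays, against -1.98, -2.65 and -3.64 on the knockout vehicle arrays, a change of 1.69 (95% interval 0.69 to 2.68), beside 0.38 for its regulator Atf4 and a median of 0.16 for that list. Nts, neurotensin of enteroendocrine cells, read 1.65, 2.40 and 3.62 on the knockout IIAEK arrays, against 1.26, 1.47 and 1.31 on the knockout vehicle arrays, a change of 1.21 (95% interval 0.13 to 2.30), beside a median of -0.01. Both were above every vehicle array, and highest on IIAEK replicate 3, without which Nts was 0.68.

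Beyond the lists, genes were taken by size and by p. Among characterised genes above background on all 6 knockout arrays and without overlap, the largest positive change was that of Mbl2, a mannose-binding lectin, at 5.67, 5.87 and 6.87 on the knockout IIAEK arrays, against 5.62, 3.58 and 4.03 on the knockout vehicle arrays. Its change was 1.72 (95% interval 0.72 to 2.72). After Mbl2, Chac1 and Nts came Kcna3, a potassium channel of lymphocytes (1.20), Ang6, a ribonuclease (1.17), and Dsg1c, a desmosomal cadherin (1.11). Farsa, a subunit of phenylalanyl-tRNA synthetase (1.03), Dkk4, a Wnt antagonist (0.96), Tm4sf20 (0.96) and Smim22 (0.95) followed. Without IIAEK replicate 3 Kcna3 was 0.50 and Farsa 0.65, and without vehicle replicate 3 Ang6 was 0.74 and Dkk4 0.61. Other probes of Farsa went the other way, at -0.35 and -0.08, so its change holds for 1 probe. Smim22, a small membrane protein, was well separated, at 7.19, 7.27 and 7.07 on the knockout IIAEK arrays, against 6.46, 6.22 and 6.0 on the knockout vehicle arrays. The largest negative changes included Ms4a1, Cr2, Tnfrsf13c, Ccr7, Clu and H2-Ob, with H2-Eb2 (-2.73) and the chemokine receptor Ccr6 (-1.97) beside those above. Fras1, an extracellular matrix protein, was -1.87. Since no gene passed in the fit of 12 arrays, these are descriptions.

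By unadjusted p in the fit of 12 arrays, Prr36, a proline-rich protein, came first at -4.74, -4.38 and -4.33 on the knockout IIAEK arrays, against -3.80, -3.59 and -3.50 on the knockout vehicle arrays (change -0.86 (95% interval -1.20 to -0.51)), and Vpreb3, Siglecg and Fcrl1 followed. Other characterised genes among the 25 of smallest p were lower. They were Gpnmb, a glycoprotein of macrophages (-1.28), Noxred1 (-0.95), Slc25a29, a mitochondrial carrier of basic amino acids (-0.89), and Pip4k2b, a phosphoinositide kinase (-0.72). Cacna1g, a calcium channel (-0.73), Cyfip2, a regulator of actin (-0.81), Cblif, intrinsic factor (-0.62), and Prdm2, a histone methyltransferase (-0.52), were lower too. Another probe changed by -0.14 for Cacna1g and by -0.21 for Prdm2. Higher were Dennd10 (0.77), Efcab11 (0.74), Lpar4, a receptor of lysophosphatidic acid (0.98), Grm5, a glutamate receptor (0.72), H2al2b, a histone variant, and Lrrtm2, a synaptic protein. H2al2b and Lrrtm2 were not above background on any vehicle array, and were at least 1.02-fold and 1.34-fold higher on IIAEK. Gpnmb was above background on 1 of the 3 IIAEK arrays, Slc25a29 and Cacna1g on 2, and Efcab11 and Lpar4 on 1 of the 3 vehicle arrays. Dennd10, a DENN domain protein, read 2.33, 2.73 and 2.43 on the knockout IIAEK arrays, against 1.90, 1.67 and 1.60 on the knockout vehicle arrays. Each of these 15 genes had groups without overlap, and each had a limma adjusted p of 0.893. They were taken by small p in the same comparison, so the lack of overlap is a description. Of all genes 3.06% were lower and 5.11% higher without overlap.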

How the data were processed

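Jejunum RNA of 12 mouse samples, 3 in each of 4 groups, was measured on Agilent mouse arrays of 1 colour. Per the file headers the authors read them with Feature Extraction 10.7.3.1, and the deposited intensity used here is the processed signal, background-subtracted by that software. The deposited value table holds log2 values of the same arrays; set against the scanner values they correlated with r of 0.983 to 1, with column medians of -0.0798 to 0.151, and their exact centring is not given in the sources used here. They served as an alternative.

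Control spots and outlier spots (49 to 95 per array) were left out, spots of a probe were averaged, 15 missing probe values were filled with the group mean, and log2 signals were set relative to each array's 75th percentile. The brightest probe stood for a gene; probes with no name were kept under their ID, and symbols came from the files and RefSeq. Of 56605 probes, 27565 genes or unnamed probes (15812 named) were tested because the software called them well above background on every array of 1 or more groups. No spot was saturated. Group means were fitted with limma 3.58.1 in R 4.3.3 over all 12 arrays, which share 1 estimate of the spread, and again over the 6 knockout arrays; p-values were adjusted by Benjamini-Hochberg over all genes. The fit was tested on simulated data. The number of arrays limits the precision. Intervals are 95% intervals of the fit. Where a probe was well above background on no array of a group, the fold is an approximate lower bound. Where it was so on only some arrays of a group, the size of the change is uncertain.

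Genes named are those at the targeted locus, the 25 characterised genes of smallest p, those that passed in the knockout-only fit, the 10 largest in each direction without overlap, and up to 8 members of each of 39 lists. The members and lists were chosen with earlier results of these data known. A few genes that this rule takes are not reported here. Alternatives covered normalization, background correction, the filter on dim probes, the choice of probe, array weights, slide and replicate number as blocks, and leaving out arrays.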

Additional observations from a re-analysis of the deposited data

Results flagged for a closer look

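For 11 of the genes named above, IIAEK and vehicle arrays did not overlap in either genotype and the direction was opposite in knockout and wild type. Over all tested genes 486 (1.76%) were of this kind, 366 of them higher and 120 lower on IIAEK in the knockout. The named genes were in large part taken by small p or lack of overlap in the knockout. The count of 11 is therefore a description and is not read against that share. The difference between the 2 genotypes was tested as the interaction in limma, and its adjusted p was 0.303 for each of the 11, so none passed. The changes of Mbl2, a mannose-binding lectin, were 1.72 in the knockout and -1.09 in wild type, a difference of 2.81. Those of Nts, neurotensin, were 1.21 in the knockout and -1.14 in wild type, a difference of 2.35; its knockout change was 0.68 without IIAEK replicate 3. Kcna3, a potassium channel of lymphocytes, had 1.20 in the knockout and -0.70 in wild type, a difference of 1.90; its knockout change was 0.50 without IIAEK replicate 3. Higher on IIAEK in the knockout and lower in wild type were also Dennd10, with 0.77 in the knockout and -0.66 in wild type, a difference of 1.43, and Grm5, a glutamate receptor, with 0.72 in the knockout and -0.69 in wild type, a difference of 1.41. Slc3a1, the heavy subunit of the dibasic amino acid carrier, had 0.67 in the knockout and -0.51 in wild type, a difference of 1.17. Agr2, the mucin-folding isomerase, had 0.45 in the knockout and -0.46 in wild type, a difference of 0.91, and Lyz1, Paneth cell lysozyme, had 0.27 in the knockout and -0.26 in wild type, a difference of 0.53.

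The opposite order held for 3 genes, which were lower on IIAEK in the knockout and higher in wild type. Alppl2, an alkaline phosphatase, had -0.55 in the knockout and 1.17 in wild type, a difference of -1.73. Pip4k2b, a phosphoinositide kinase, had -0.72 in the knockout and 0.40 in wild type, a difference of -1.12, and Prdm2, a histone methyltransferase, had -0.52 in the knockout and 0.30 in wild type, a difference of -0.82. Another probe of Prdm2 changed by -0.21 in the knockout. On the wild-type arrays Mbl2 read 3.80, 4.26 and 3.83 with IIAEK and 5.30, 5.02 and 4.82 with vehicle. Nts read 1.98, 1.53 and 0.24 with IIAEK and 2.12, 2.16 and 2.89 with vehicle.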

How the results depend on the processing

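The main limit is 3 arrays in each group. The count of 0 genes at an adjusted p of 0.05 in the fit of 12 arrays was 14 in the fit of the 6 knockout arrays alone. That 14 was 9 with a replicate block, 7 with normexp, 9 without a filter on dim probes, 7 among genes above background on all 6 knockout arrays, 51 with array weights, 7 without both replicates 3, and 0 to 12 when 1 array was left out. Deviations of knockout arrays with the same replicate number correlated at 0.21, 0.09 and 0.35. The value of 0.35 is that of replicate 3, whose number goes with slide 2. Within slide 1, vehicle replicate 1 and IIAEK replicate 2 correlated at 0.177, and vehicle replicate 2 and IIAEK replicate 1 at 0.0987. Whether the samples were paired was not tested. The replicate block changed no other call of the main comparison, whose count stayed at 0. The interaction count of 0 was 1 with a slide block and 1911 with array weights. The weights favoured single arrays. Knockout vehicle replicate 2 had 4.28, beside 0.85 and 0.40 for replicates 1 and 3, and knockout IIAEK replicate 2 had 1.97, beside 0.41 and 0.38. Wild-type IIAEK replicate 2 had 3.31, beside 0.91 and 0.45, while wild-type vehicle arrays had 0.82, 1.64 and 1.23. Counts with array weights thus rest largely on few arrays. At an unadjusted p under 0.05 the number lower was 959 without the filter, 2317 with array weights and 474 to 1131 when 1 array was left out; the number higher was 3370 with array weights, 234 without both replicates 3 and 420 to 1774 when 1 array was left out. Genes without overlap numbered 1511 lower without the filter, 3525 lower and 4132 higher without both replicates 3, and 1360 to 3276 lower and 2176 to 4689 higher when 1 array was left out, where fewer arrays make overlap rarer. The follicular B cell median was -1.10 within slide 1 and without both replicates 3, -1.68 within slide 2, -1.12 with normexp and -1.44 to -1.17 without single arrays. Within slide 2 the medians were -1.29 for MHC class II, 1.58 for Paneth cell and -0.77 for immediate early genes. Directions reversed for 4 genes: Alpi was 0.0146 with array weights, 0.0023 without both replicates 3 and -0.475 to -0.0279 without single arrays; Npc1l1 was -0.0495 to 0.497, H2-Ab1 -0.827 to 0.0667 and Slc15a1 -0.0848 to 0.956 (-0.0415 without vehicle replicate 2). The causes were not tested. The setting without both replicates 3 was chosen after seeing the data. Probes above background on no array of a group have only bounds, and the changes of others near background are uncertain in size.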

Other observations

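Interferon-stimulated genes, which cells switch on in answer to viral or bacterial signals, were low on the slide 2 arrays of the knockout, in both treatments. The mean level of the 18 tested genes was 1.44, 1.59 and 0.30 on the knockout IIAEK arrays, against 1.60, 1.48 and -0.26 on the knockout vehicle arrays. The 2 arrays on slide 2, replicate 3 of both groups, were lowest. The wild-type means were 1.03, 1.85 and 1.67 on the wild-type IIAEK arrays, against 1.33, 1.17 and 1.38 on the wild-type vehicle arrays, and the slide 2 arrays there, replicates 2 and 3 of both groups, were not lower than the others as a set.

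Clock genes differed between single arrays. Arntl, an activator of the clock, read 0.47, 0.05 and -0.11 on the knockout IIAEK arrays, against 0.52, 0.27 and -1.80 on the knockout vehicle arrays, and Per1, a repressor, read 2.79, 2.87 and 2.46 on the knockout IIAEK arrays, against 2.14, 2.54 and 4.18 on the knockout vehicle arrays. Genes of the serosal mesothelium and of fat marked other arrays. Upk3b, a mesothelial gene, read -3.74, -3.44 and -4.12 on the knockout IIAEK arrays, against -2.99, -6.88 and -6.60 on the knockout vehicle arrays, and Adipoq, the adipocyte hormone adiponectin, read 1.10, -6.89 and -0.03 on the knockout IIAEK arrays, against 1.77, 0.45 and -2.32 on the knockout vehicle arrays. The groups overlapped for all 4 genes.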
